A study of Homo sapiens with 10 samples.

Results

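The first response of K562 cells to AZ-5576, an inhibitor of the kinase CDK9, was read in 2 of the 10 libraries of a pulse-chase experiment. The library from cells chased for 2 h with 1 µM AZ-5576 was set against the library from cells chased for 2 h with DMSO. Genes entered if their total count averaged at least 20 over the 10 libraries, which kept 11797 of the 59204 genes listed, and 28888 of the listed genes had no read. SOS1-IT1 lay just inside this limit with a mean of 20 (27 reads in AZ-5576, 15 in DMSO) and RPS5P2 just outside it with a mean of 19.9 (19 reads in AZ-5576, 15 in DMSO).

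K562 is an established line from a chronic myeloid leukaemia with erythroid features. All cells, including those of both 2 h groups, had first taken up 30 µM 4-thiouridine for 12 h, in medium renewed every 3 h, and were then washed. The AZ-5576 2 h group received 3 mM uridine with 1 µM AZ-5576, the DMSO 2 h group 3 mM uridine with DMSO, and the 0 h group was harvested as the chase began. Groups at 4 and 8 h of AZ-5576 or DMSO were used to follow the genes, and a group given 1 µM JQ1 for 2 h, a BET bromodomain inhibitor, is named where its values stand beside them. Each group is 1 library, so no ratio below has a replicate check or a test, and intervals are exact 95% intervals that cover counting error only.

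CDK9 with cyclin T forms P-TEFb, which phosphorylates RNA polymerase II and the factors that hold it paused near promoters, and so lets it elongate. P-TEFb is held inactive by 7SK RNA together with HEXIM proteins, and is part of the super elongation complex when active at genes. RNA that decays fast, such as that of signal-induced transcription factors, needs constant synthesis to keep its level. Thiouridine built into RNA is read as T-to-C changes after alkylation, so reads with such changes (labelled reads) come mostly from RNA made in the pulse, and the rest (unlabelled reads) include the RNA made in the chase. Labelled reads were 32.0% of all reads at 0 h, before any RNA was made in the chase. The unlabelled rest at 0 h may be older RNA or pulse RNA whose reads carry no change, and these cannot be told apart here.

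The AZ-5576 2 h library had 12266820 human reads, the DMSO 2 h library 11644394 and the 0 h library 12099803, within a range of 10293371 to 16008906 over the 10 libraries. Values were scaled by reads of fly S2 RNA added at 5% to the purified RNA, which numbered 1361271, 1208073 and 1479776 in the same order. Fly RNA was added in proportion to purified RNA and not to cells, so values are relative to RNA amount, and neither fewer cells nor less RNA per cell would show in them or could be told apart. Labelled reads per fly read were 2.61 at 0 h, 2.81 in DMSO 2 h and 2.75 in AZ-5576 2 h. Their sum was thus no lower after 2 h of chase than at its start. The reason was not tested, and the excess and the comparisons with 0 h below carry this limit. The K562 markers, among them GATA1, TAL1 and the fetal and embryonic globins, summed to 173825 reads in AZ-5576 2 h, 132411 in DMSO 2 h and 151113 at 0 h. The 9 markers of other cell types summed to 594, 754 and 777 reads in those libraries. Most of these came from EPCAM, CD3E was at 0 in all 3, and MS4A1 and ALB had at most 3 reads.

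Unlabelled RNA was lower than in DMSO at many genes after 2 h of AZ-5576, while labelled RNA was within 2-fold of DMSO at most genes. Set against 0 h, the median unlabelled log2 ratio was 0.13 in AZ-5576 and 0.57 in DMSO. Falls and rises below are relative to DMSO of the same hour unless 0 h is named. Counts of them use the 2-fold limit unless another is given. Per fly read, unlabelled RNA was at least 2-fold lower than in DMSO at 2545 of 11797 genes (21.6%) and at least 2-fold higher at 166 (1.41%), with a median log2 ratio of −0.42. In total reads 1097 genes (9.3%) were at least 2-fold lower and 108 (0.915%) higher, with a median of −0.25. In labelled reads 773 (6.55%) were lower and 505 (4.28%) higher, with a median of −0.06. The balance of these counts depends on the scale. Scaled by edgeR's TMM on human genes, which raises every log2 ratio by one constant and so moves the median of total reads to −0.01, 76.8% of the calls in total reads were falls, against 91.0% per fly read. The labelled calls were 39.9% falls with TMM and 60.5% per fly read.

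The fly genes, which are the same RNA in each library, show how far ratios scatter between these libraries with the same RNA on both sides. Among 1886 fly genes with at least 100 reads in the higher library, 2.55% were 2-fold lower in AZ-5576 and 0.477% higher, 3 were past 4-fold lower and 0 past 8-fold lower, and the lowest log2 ratio was −2.47. The SD of their ratios was 0.41, which is wider than in the same pair at 4 h (0.37) or 8 h (0.25). Among 6616 human genes with at least 100 unlabelled reads, 1014 (15.3%) were 2-fold lower, 128 (1.93%) 4-fold lower and 23 (0.348%) 8-fold lower, against 6 (0.0907%) 2-fold higher. Total reads of 8097 such genes gave 467 (5.77%) 2-fold lower and 47 (0.580%) 4-fold lower. For total reads of genes with a mean of at least 500, 2.25% of human and 2.59% of fly genes were 2-fold lower, so a 2-fold fall of total reads there was no more frequent than in the fly RNA. Labelled reads of 5515 human genes gave 35 (0.635%) falls past 2-fold and 4 (0.0725%) rises.

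**Figure D1:**
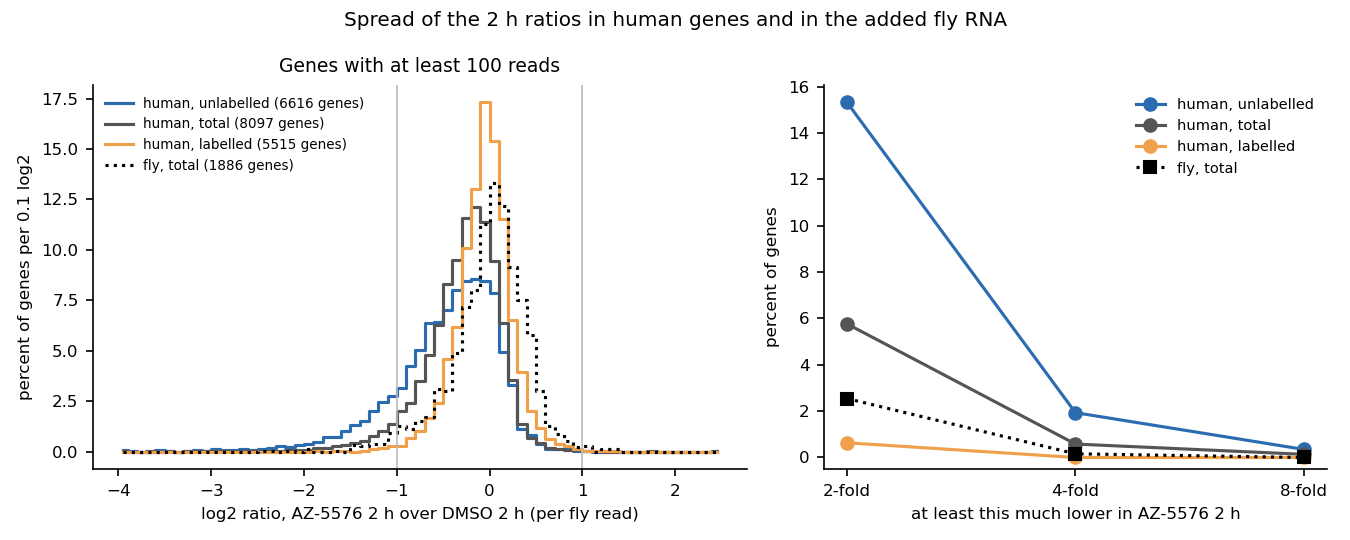
Left, log2 ratio of AZ-5576 2 h over DMSO 2 h per fly read (x) against the percent of genes per 0.1 log2 (y), for human unlabelled, total and labelled reads and for fly genes, all with at least 100 reads in the higher library, with values beyond the plotted range gathered in the end bins. Right, the percent of those genes at least 2-, 4- and 8-fold lower. The unlabelled curve has a long left shoulder that the fly and labelled curves lack: 15.3% of its genes were past 2-fold lower, against 2.55% of fly genes and 0.635% for labelled reads.

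The labelled share of a gene, the labelled part of its own reads, needs no scale between libraries. Over 8972 genes with at least 50 reads in both libraries its median was 47.5% in AZ-5576 2 h, 40.1% in DMSO 2 h and 51.7% at 0 h. The share was at least 10 points higher in AZ-5576 than in DMSO at 2770 genes (30.9%) and at least 10 points lower at 213 (2.37%). Shares in AZ-5576 were thus nearer to those at 0 h than shares in DMSO were. Next, each gene's unlabelled reads were compared with those predicted from its labelled reads and its ratio of unlabelled to labelled reads at 0 h. This excess summed to 0.249 reads per fly read in AZ-5576 and 0.780 in DMSO over 7531 genes with at least 50 labelled reads at 0 h, so the AZ-5576 excess was 32.0% of that in DMSO, although all unlabelled reads were at 92.0%. It was over 2 counting SE above 0 at 2113 genes (28.1%) in AZ-5576 and 4460 (59.2%) in DMSO, and over 2 SE below 0 at 715 (9.49%) in AZ-5576 and 354 (4.70%) in DMSO.

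**Figure D2:**
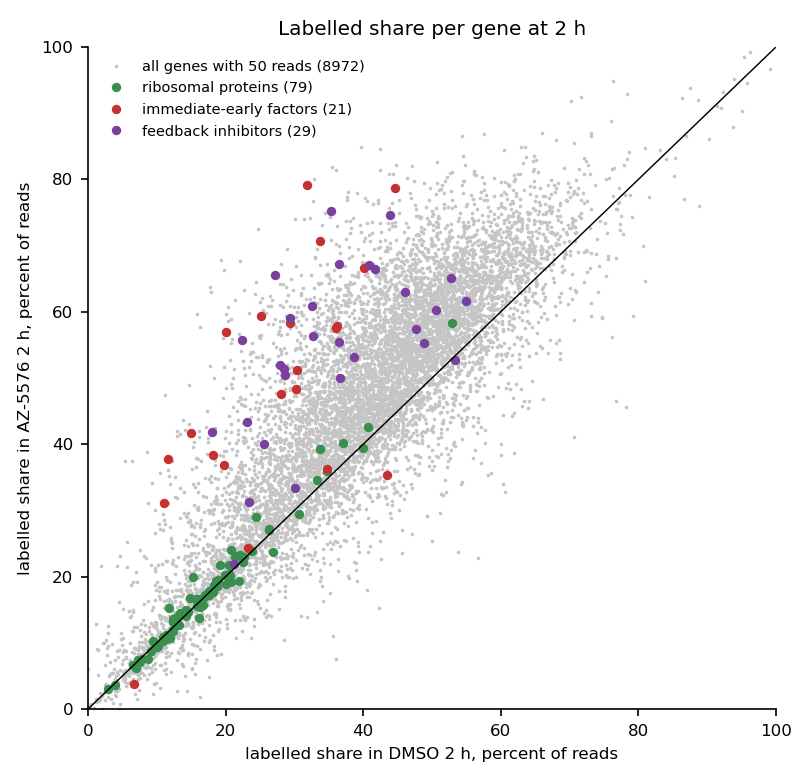
Labelled share of each gene in AZ-5576 2 h (y, percent of its reads) and DMSO 2 h (x), for 8972 genes with at least 50 reads in both; the line marks equal shares. Genes of the immediate-early and feedback inhibitor lists lie above the line by a median of 21.6 and 20.2 points, and ribosomal protein genes lie on it (0.06 points).

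Immediate-early transcription factors, which cells switch on within minutes of a signal and whose RNA decays fast, had the lowest median of the 27 gene lists looked at. Lists and members were chosen with earlier results of these data known, so the ranks and shares of lists here and below are descriptive only. This list also holds ID and HES genes, so its counts are those of the list as drawn up. Of 31 measured members, 29 fell in unlabelled reads and 24 in total reads, where 21.6% and 9.3% of all genes did. The median log2 ratios were −1.95 unlabelled, −1.48 total and −0.70 labelled. No member rose in unlabelled or total reads, and MYC, described further on, is among them. JUNB, a subunit of the dimeric AP-1 factor, had 35 unlabelled reads in AZ-5576 2 h, 353 in DMSO 2 h and 74 at 0 h, a log2 ratio of AZ-5576 over DMSO of −3.49. Its labelled share was 41.7% in AZ-5576, 14.9% in DMSO and 52.9% at 0 h. EGR1, a zinc finger factor induced by growth signals, had 22 unlabelled reads in AZ-5576, 214 in DMSO and 22 at 0 h (log2 −3.43). The AZ-5576 library was the lowest of the 3 for JUNB and level with 0 h for EGR1, and DMSO was far the highest for both.

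CSRNP1, a cysteine- and serine-rich nuclear protein, had the lowest ratio in the list among members with at least 100 unlabelled reads, with 38 unlabelled reads in AZ-5576, 403 in DMSO and 74 at 0 h (log2 −3.56). IER5, an immediate-early regulator linked to the heat shock response, had 72, 630 and 178 unlabelled reads (log2 −3.29) in AZ-5576, DMSO and 0 h. Its labelled reads, 274 in AZ-5576 and 294 in DMSO, differed little (log2 −0.27), and its labelled share was 79.2% in AZ-5576 and 31.8% in DMSO. The gap between the arms at IER5 lay in unlabelled reads. CEBPB, a leucine zipper factor of myeloid cells, had 74 unlabelled reads in AZ-5576, 415 in DMSO and 137 at 0 h (log2 −2.65). IER2, the member with the most reads named here, had 736, 2523 and 671 in those libraries (log2 −1.95). MAFF, KLF11, IER3, FOSL1 and ID1 also fell in unlabelled reads, with log2 ratios of −3.28 to −2.61.

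These falls were measured against a DMSO library in which the same list had risen since 0 h. Total reads of 17 of the 31 immediate-early members were at least 2-fold above 0 h in DMSO 2 h (7.99% of all genes were), and 0 were 2-fold below (0.712% of all genes). In AZ-5576 2 h 2 members were 2-fold above 0 h (2.89% of all genes) and 11 were below (3.57% of all genes). The list's median total log2 ratio to 0 h was −0.62 in AZ-5576 and 1.08 in DMSO. In unlabelled reads JUNB, CSRNP1, IER3 and CEBPB had log2 ratios to 0 h of −0.95, −0.83, −1.10 and −0.76 in AZ-5576 and of 2.54, 2.73, 1.85 and 1.89 in DMSO. IER2 was above 0 h in both arms, at 0.25 in AZ-5576 and 2.20 in DMSO. Over the whole list the median unlabelled log2 ratio to 0 h was −0.17 in AZ-5576 and 1.88 in DMSO, where all genes had 0.13 and 0.57. Cells of both arms had been washed and given fresh medium at 0 h, and the part of that handling in the DMSO levels was not tested.

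FOSB, another AP-1 subunit, was the exception in its course. It had 308 unlabelled reads in AZ-5576 2 h, 636 in DMSO 2 h and 1 at 0 h, so it was present in both arms at 2 h and nearly absent at the start. Its log2 ratio of AZ-5576 over DMSO was −1.22, and at 4 and 8 h it was −0.42 and −0.82. FOS went the same way at low counts, with 16, 34 and 0 unlabelled reads in AZ-5576, DMSO and 0 h. KLF6, a Krüppel-like factor, had 413 in AZ-5576, 767 in DMSO and 258 at 0 h (log2 −1.06), above 0 h in both arms. FOSB, FOS and KLF6 were singled out after their values were seen.

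The list named for feedback inhibitors, the proteins that end the signals which induce them, was nearly as low. It also holds genes of other roles, among them the PIM kinases, SGK1, PER1, PER2 and CITED2, so its counts are not of feedback inhibitors alone. Of 51 measured members, 38 fell in unlabelled reads and 29 in total reads, where 21.6% and 9.3% of all genes did. In these reads 0 rose, and the medians were −1.83 unlabelled, −1.16 total and −0.33 labelled. SOCS3, an inhibitor of JAK-STAT signalling (chr17:78356778-78360077, minus strand, GRCh38), had 2 unlabelled reads in AZ-5576 2 h, 134 in DMSO 2 h and 50 at 0 h. That is 1.32% of the DMSO level per fly read, with an interval of 0.159% to 4.88%. SOCS3 had 0 labelled reads in AZ-5576, 22 in DMSO and 102 at 0 h, which puts AZ-5576 at least 8.26-fold lower than DMSO if 0 is taken as up to 3 reads. Among protein-coding genes with at least 100 unlabelled reads, no other gene had so low a ratio, and its labelled reads were gone as well.

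NFKBIA encodes IκBα, which retains NF-κB in the cytoplasm (chr14:35401511-35404749, minus strand). It had 14 unlabelled reads in AZ-5576, 236 in DMSO and 44 at 0 h (log2 −4.20), and 13, 78 and 84 labelled reads in the same libraries (log2 −2.71). PPP1R15A, which directs the phosphatase that reverses eIF2α phosphorylation, had 198 unlabelled reads in AZ-5576, 1144 in DMSO and 200 at 0 h (log2 −2.70). PIM3, a kinase induced by cytokines, had 168, 726 and 214 (log2 −2.28), and its relative PIM1 247, 675 and 292 (log2 −1.62). In AZ-5576 these 4 genes were near or below their 0 h level per fly read, while in DMSO they were well above it. TNFAIP3, the ubiquitin-editing inhibitor of NF-κB, had 38 in AZ-5576, 134 in DMSO and 49 at 0 h (log2 −1.98), yet its labelled reads were 115 in AZ-5576 and 73 in DMSO (log2 0.48).

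Not all of the list moved. NFKBIB, which encodes IκBβ, had 682 unlabelled reads in AZ-5576, 610 in DMSO and 724 at 0 h (log2 −0.01), and TNIP1, a partner of TNFAIP3, had 204, 193 and 176 (log2 −0.09). In DMSO both were within 2-fold of 0 h as well, so they showed neither the rise in DMSO nor the gap between arms. At 4 h the log2 ratios of unlabelled reads were −0.91 for NFKBIB and −1.28 for TNIP1, and at 8 h they were −2.23 and −3.08.

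JQ1, set against the same DMSO library, gave other values at several of these genes. SOCS3 had an unlabelled log2 ratio of −5.92 in AZ-5576 2 h and of 1.45 in JQ1 2 h. EGR1 had −3.43 in AZ-5576 and 2.84 in JQ1, IER5 −3.29 and 1.51, SERTAD1, a cyclin-dependent kinase 4 binding protein, −2.48 and 1.27, and JUN, the AP-1 subunit, −2.11 and 1.34. NFKBIA at −4.20 and −0.61, TNFAIP3 at −1.98 and −2.29 and CEBPB at −2.65 and −0.71 were below 0 under both inhibitors. Both columns of ratios share 1 DMSO library, these genes were picked after their values were seen, and the difference between inhibitors was not tested.

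The promoters of NFKBIA, JUNB and EGR1 are shown because their RNA fell past 8-fold and they carry elements known from signal-driven genes. The 250 bases before each start are from RefSeq (GRCh38.p14), 5′ to 3′ on the gene's strand, at chr14:35404750-35404999 (minus), chr19:12791236-12791485 (plus) and chr5:138465229-138465478 (plus). Capitals mark an NF-κB site and a TATA box (its letters read on the opposite strand) in NFKBIA, a TATA box in JUNB, and a STAT site with letters TTCNNNGAA followed by a pair of CArG boxes, bound by SRF, in EGR1.
NFKBIA: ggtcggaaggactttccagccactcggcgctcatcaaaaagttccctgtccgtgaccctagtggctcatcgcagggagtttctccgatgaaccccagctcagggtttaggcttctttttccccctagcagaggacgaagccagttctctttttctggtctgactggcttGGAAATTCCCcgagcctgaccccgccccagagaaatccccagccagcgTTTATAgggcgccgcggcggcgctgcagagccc
JUNB: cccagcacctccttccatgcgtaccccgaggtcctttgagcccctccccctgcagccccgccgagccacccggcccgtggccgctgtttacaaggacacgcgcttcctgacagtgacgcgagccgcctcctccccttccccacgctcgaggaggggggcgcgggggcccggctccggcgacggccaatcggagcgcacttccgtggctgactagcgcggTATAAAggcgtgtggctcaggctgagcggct
EGR1: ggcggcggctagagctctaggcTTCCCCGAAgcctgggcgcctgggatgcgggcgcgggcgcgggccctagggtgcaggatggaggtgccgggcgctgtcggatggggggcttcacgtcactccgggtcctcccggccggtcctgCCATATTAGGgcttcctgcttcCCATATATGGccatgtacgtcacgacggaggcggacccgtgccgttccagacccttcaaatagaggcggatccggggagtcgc

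The letters TATAAA, searched on both strands of these 250 bases, occurred in 11 of the 67 promoters found for the 31 immediate-early and 51 feedback members (16.4%). They occurred in 5.05% of the 8405 promoters of tested genes that could be matched by symbol and in 11.1% of all 27305 promoters in the table. Of 89 matched genes past 4-fold lower in unlabelled reads with at least 100 reads, 13.5% had them. CArG boxes, which can themselves hold TATAAA, were in 2 of the 67 and in 312 of the 27305. The cAMP response element TGACGTCA was in 8.96% of the 67, 3.19% of tested and 1.77% of all promoters. NF-κB sites were in 3 of the 67 (4.48%), 5.46% of tested and 5.05% of all promoters. The STAT letters were in 3 of the 67 (4.48%), 5.47% of tested and 6.78% of all promoters, and the AP-1 letters TGANTCA in 0 of the 67, 3.49% of tested and 6.60% of all. These shares describe the letters only, and no difference between them was tested.

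MCL1 and MYC carry much of the interest in CDK9 inhibition in leukaemia. MCL1, an anti-apoptotic BCL2 protein with short-lived RNA (chr1:150574551-150579738, minus strand), had 356 unlabelled reads in AZ-5576 2 h, 1275 in DMSO 2 h and 414 at 0 h (log2 −2.01). Its labelled reads were 465, 644 and 973 in those libraries (log2 −0.64), and its labelled share was 56.6% in AZ-5576 and 33.6% in DMSO. The excess of unlabelled MCL1 reads over the prediction was 116 ± 17.6 per 1000000 fly reads in AZ-5576 and 829 ± 33.6 in DMSO (counting SE). Its anti-apoptotic relative BCL2L1 stayed within 2-fold, with 518 unlabelled reads in AZ-5576, 575 in DMSO and 436 at 0 h (log2 −0.32). BBC3, the pro-apoptotic PUMA, had 132, 349 and 74 (log2 −1.57). These 2, MCL1 and BBC3, were the falls past 2-fold among the 12 measured members, in unlabelled as in total reads. This 16.7% is below the 21.6% of all genes in unlabelled reads and above the 9.3% in total reads.

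MYC, the growth regulator, had 25 unlabelled reads in AZ-5576, 107 in DMSO and 90 at 0 h, which is 20.7% of DMSO per fly read (interval 12.8% to 32.3%). Its labelled reads were 92 in AZ-5576, 86 in DMSO and 260 at 0 h. Labelled MYC reads had fallen past 2-fold since 0 h in each arm and differed little between the arms (log2 −0.08), whereas unlabelled reads did differ. The excess over prediction was −5.03 ± 5.26 per 1000000 fly reads in AZ-5576 and 63.9 ± 9.46 in DMSO. Among its network, MXD1, a MAX partner that opposes MYC, had 48 unlabelled reads in AZ-5576, 171 in DMSO and 49 at 0 h (log2 −1.99), and 3 of 11 measured members fell in unlabelled reads (27.3%, against 21.6% of all genes).

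The list named for P-TEFb, 7SK and the super elongation complex was mixed. It also holds NELF, SUPT, PAF1 complex and BRD genes, and CDK7, CDK12 and CDK13. Its counts are thus not of P-TEFb alone, and 7SK RNA is not among its measured members. Of 33 measured members, 12 fell in unlabelled reads (36.4%, against 21.6% of all genes). In total reads 1 fell, where 9.3% of all genes did. The medians were −0.75 unlabelled and −0.54 total, and CDK9 was under the count minimum. HEXIM1, the inhibitor that holds P-TEFb with 7SK, had 56 unlabelled reads in AZ-5576, 218 in DMSO and 127 at 0 h (log2 −2.12). Its labelled share was 79.1% in AZ-5576, 51.4% in DMSO and 72.5% at 0 h. HEXIM1 unlabelled reads had a log2 ratio of 1.19 in JQ1 2 h over the same DMSO library. CCNT1 and CCNT2, the cyclins T of P-TEFb, had 269 and 62 unlabelled reads in AZ-5576, 513 and 170 in DMSO (log2 −1.10 and −1.62). BRD2, a bromodomain protein, had 3286 unlabelled reads in AZ-5576, 5595 in DMSO and 4886 at 0 h (log2 −0.94), just within 2-fold. In the same list EAF1, AFF1, CDK13, MEPCE and ELL fell in unlabelled reads, with log2 ratios of −1.49 to −1.17. Of 43 subunits of polymerase II and Mediator 9 fell (20.9%, near the 21.6% of all genes), the lowest ratio named here being that of MED4 (56 unlabelled reads in AZ-5576, 192 in DMSO, 56 at 0 h, log2 −1.94). POLR2A, the largest subunit of the polymerase, had 402, 501 and 302 (log2 −0.49).

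**Figure D3:**
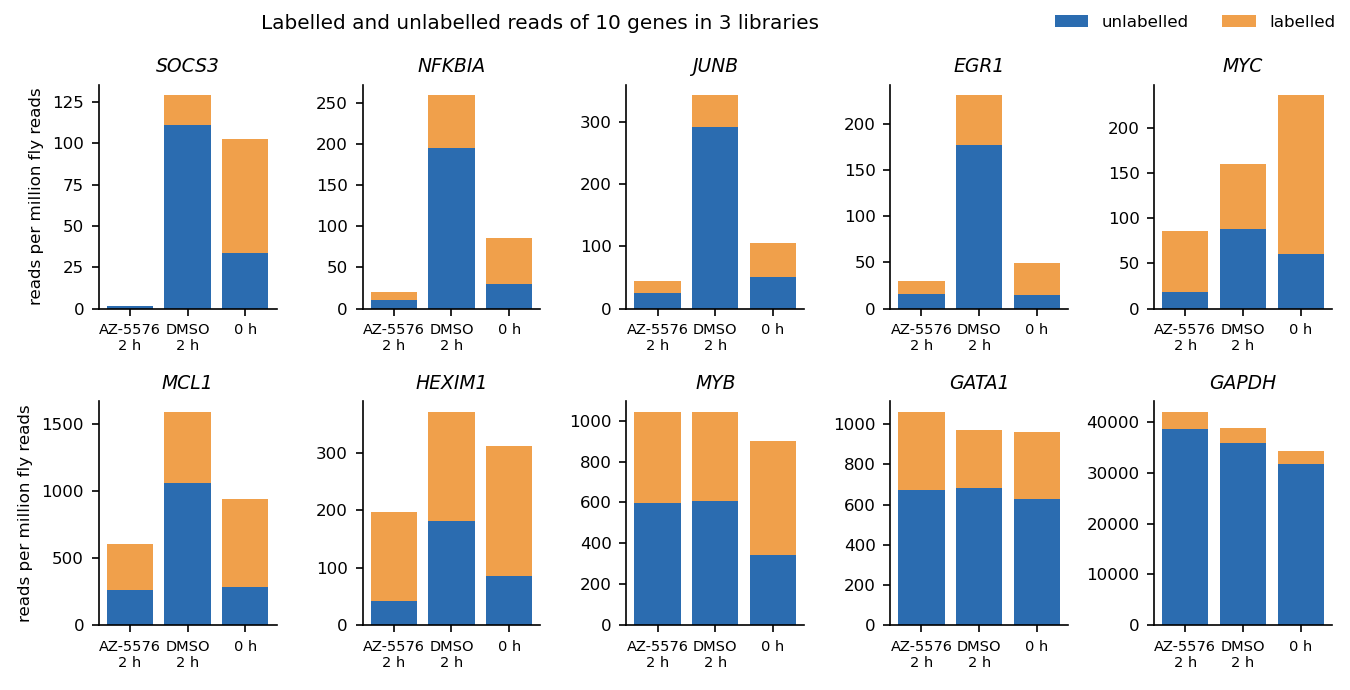
Reads per 1000000 fly reads (y, from 0, a scale for each gene) in AZ-5576 2 h, DMSO 2 h and 0 h (x), split into unlabelled (blue) and labelled (orange). SOCS3, NFKBIA, JUNB, EGR1 and MCL1 were highest in DMSO and low in AZ-5576; MYC had little unlabelled RNA left in AZ-5576 (25 reads); MYB, GATA1 and GAPDH were each within 2-fold between the arms.

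Lineage factors of K562, taken as a list, lay near all genes at 2 h. Of 26 erythroid and leukaemia transcription factors 4 fell in unlabelled reads (15.4%, against 21.6% of all genes) and 2 in total reads (against 9.3%). Their unlabelled median of −0.37 was close to that of all genes (−0.42). GATA1, the master erythroid factor, had 917 unlabelled reads in AZ-5576, 822 in DMSO and 925 at 0 h (log2 −0.01). MYB, which keeps progenitors proliferating, had 813 in AZ-5576, 732 in DMSO and 509 at 0 h (log2 −0.02), and its excess over prediction was 321 ± 28.4 per 1000000 fly reads in AZ-5576 and 337 ± 29.5 in DMSO. Unlabelled MYB was thus above 0 h in both arms. At 4 and 8 h the unlabelled log2 ratios of MYB were −2.77 and −4.44, and those of GATA1 −0.63 and −2.30. ZBTB7A, a repressor of fetal globin, did fall at 2 h, with 604 unlabelled reads in AZ-5576, 1664 in DMSO and 854 at 0 h (log2 −1.63), as did ETS2, an ETS family factor, with 136, 390 and 101 (log2 −1.69). KLF1, the erythroid Krüppel-like factor, had 303, 427 and 494 (log2 −0.67), short of the 2-fold limit.

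Housekeeping RNAs gave a flat background for these falls. ACTB and GAPDH had unlabelled log2 ratios of −0.04 and 0.11. None of 79 cytosolic ribosomal protein genes passed 2-fold in unlabelled, total or labelled reads (medians 0.02, 0.01 and −0.02), and of 11 mitochondrially encoded mRNAs, which are not made by polymerase II, none did in unlabelled or total reads and 1 rose in labelled reads (medians 0.06, 0.06 and 0.08). With TMM both lists lie above 0, the unlabelled median of ribosomal protein genes being 0.26, while those of the immediate-early and feedback lists remain below it (−1.71 and −1.59). Of 90 nuclear genes named for oxidative phosphorylation subunits 9 fell in unlabelled reads (10.0%, against 21.6% of all genes), and 8 of these are not protein-coding. Globins and other erythroid products had a median of −0.07 unlabelled over 35 members, with HBG1, a fetal globin nearly identical to HBG2, at 0.34. Of 19 glycolytic genes 2 fell in unlabelled reads (10.5%, against 21.6% of all genes). HK2, the inducible hexokinase, had 49 in AZ-5576, 164 in DMSO and 57 at 0 h (log2 −1.90), and SLC2A3, a glucose transporter, had a log2 ratio of −1.13.

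Numbered zinc finger genes, many of them KRAB repressors, had the next lowest median. Of 302 members 153 (50.7%) fell and 1 rose in unlabelled reads, where 21.6% and 1.41% of all genes did. In total reads 78 fell, against 9.3% of all genes, and the medians were −1.02 unlabelled and −0.58 total. The labelled share was at least 10 points higher in AZ-5576 at 105 of 180 members with enough reads, against 30.9% of all such genes. ZNF296 had 35 unlabelled reads in AZ-5576, 459 in DMSO and 124 at 0 h (log2 −3.87), and ZNF281 had 33, 263 and 101 (log2 −3.15). Both were lowest in AZ-5576. At low depth the scatter is wide, and in total reads 20.1% of human and 12.4% of fly genes with a mean of 20 to 50 reads were 2-fold lower.

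Other groups lay nearer to all genes, of which 21.6% fell in unlabelled reads with a median of −0.42. Of 38 splicing regulators 11 fell (28.9%, median −0.70), among them CCNL1, a cyclin of splicing-linked kinases, with 120 in AZ-5576, 463 in DMSO and 223 at 0 h (log2 −2.12). HNRNPDL, an hnRNP that controls its own splicing, had 966, 2415 and 925 (log2 −1.49). Of 42 ribosome biogenesis genes 12 fell (28.6%, median −0.66), with RRS1 at 234, 714 and 475 (log2 −1.78). The integrated stress response list had 9 falls in 23 members (39.1%, median −0.65). It shares ATF3 and CEBPB with the immediate-early list and PPP1R15A and TRIB3 with the feedback list, so it is not a separate set of genes. DDIT3, the factor CHOP, had 104 in AZ-5576, 525 in DMSO and 253 at 0 h (log2 −2.50), and ATF4, the central factor of that response, had 4087, 5701 and 3686 (log2 −0.65). Of 36 G1/S genes 11 fell (30.6%, median −0.40). The remaining groups were at or below the share of all genes, with falls in 5 of 42 mitotic genes (11.9%), 4 of 20 heat shock chaperones (20.0%), 1 of 35 proteasome subunits (2.86%) and 4 of 23 sterol genes (17.4%). So were mRNA decay factors with 6 of 53 (11.3%) and histone genes, whose copies are near-identical, with 5 of 24 (20.8%).

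Noncoding RNAs included the primary transcript of the miR-17-92 cluster. MIR17HG had 63 unlabelled reads in AZ-5576, 641 in DMSO and 205 at 0 h (log2 −3.51), and its labelled reads were 78, 168 and 487 (log2 −1.27). SNHG3, a host of small nucleolar RNAs, had 1614 in AZ-5576, 6157 in DMSO and 2288 at 0 h (log2 −2.10), while SNHG5 and SNHG29 had log2 ratios of 0.01 each. Of 31 such genes 9 fell in unlabelled reads, where 21.6% of all genes did, and their median of −0.46 was close to that of all genes (−0.42).

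**Figure D4:**
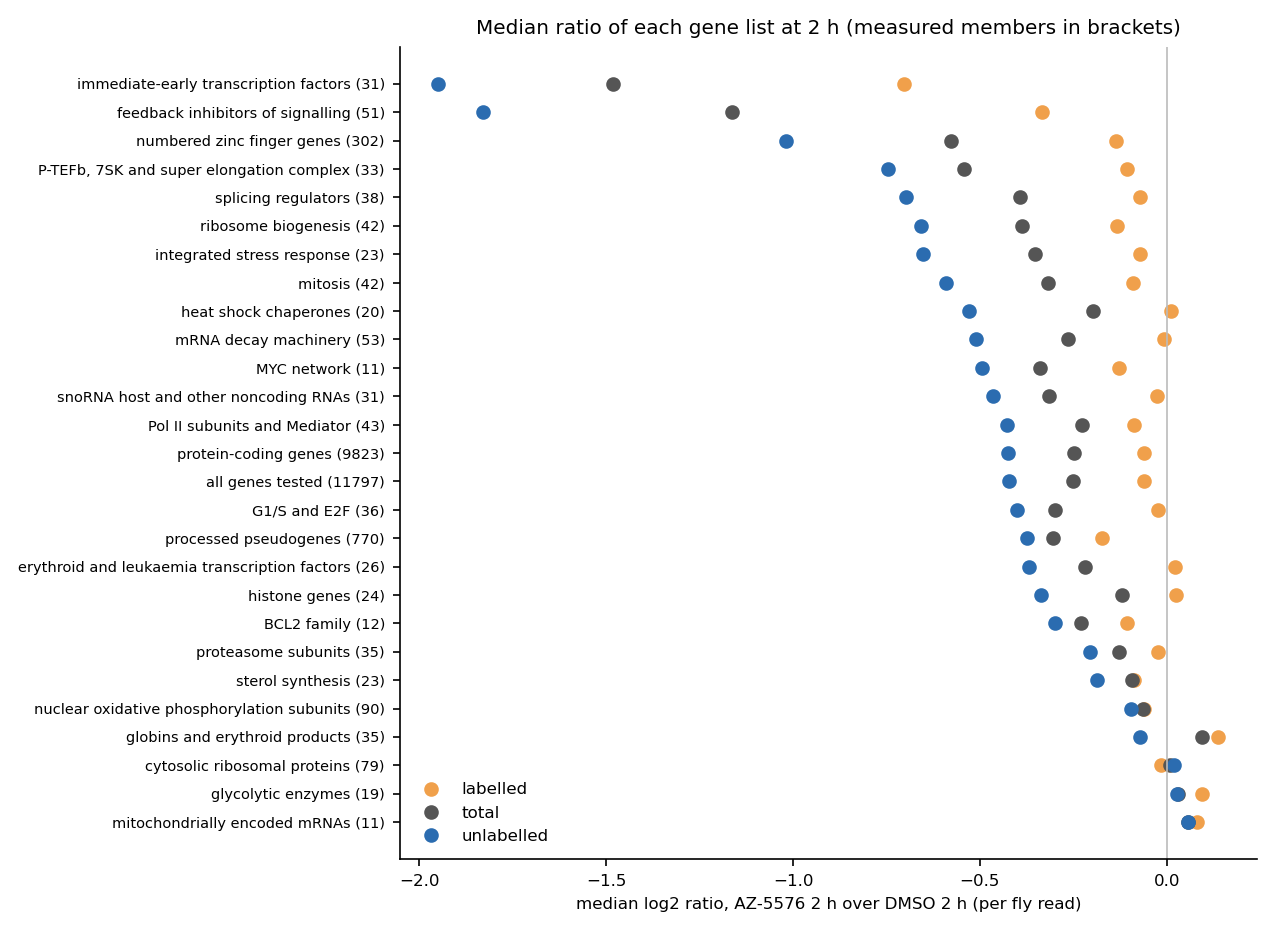
Median log2 ratio of AZ-5576 2 h over DMSO 2 h per fly read (x) for each gene list with at least 10 measured members (y, members in brackets), for unlabelled, total and labelled reads. The lists of immediate-early factors (−1.95 unlabelled) and feedback inhibitors (−1.83) lie far left of all genes (−0.42), and ribosomal protein, glycolytic and mitochondrially encoded genes lie near 0.

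Rises were few. Over all genes tested, low counts included, the highest log2 ratios were 5.85 unlabelled and 3.73 total. The rises named here are of genes with at least 100 reads of that kind in the higher library. The largest of these in unlabelled and in total reads was RNVU1-25, a variant U1 small nuclear RNA (160 bases at chr1:146409903-146410062, plus strand). It had 220 unlabelled reads in AZ-5576 2 h, 30 in DMSO 2 h and 5 at 0 h (log2 2.68). Its log2 ratios at 4 and 8 h were 3.43 and 4.02. Small nuclear RNAs have near-identical copies and no poly(A) tail when mature, so the assignment of its reads is uncertain. Metallothionein MT1X had 128 unlabelled reads in AZ-5576, 44 in DMSO and 112 at 0 h (log2 1.36), so DMSO was the low library. S100A1, a calcium-binding protein, had 114, 41 and 47 (log2 1.29), and COX18, an assembly factor of cytochrome oxidase, 146, 55 and 65 (log2 1.23). SLC25A34, a mitochondrial carrier, and the antisense gene ENSG00000271754 were at log2 1.00 and 1.01. CCDC80, a secreted protein, rose in total reads, with 109 in AZ-5576, 28 in DMSO and 15 at 0 h (log2 1.77), as did LRSAM1, a ubiquitin ligase (log2 1.02).

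Among the 5515 genes with at least 100 labelled reads, few passed 2-fold in them (35 lower and 4 higher), and most of the 773 falls and 505 rises over all genes were at lower counts. TXNIP, a thioredoxin-binding protein with short-lived RNA, had 164 labelled reads in AZ-5576 2 h, 422 in DMSO 2 h and 883 at 0 h (log2 −1.53), and 197, 1271 and 341 unlabelled reads (log2 −2.86). It was the only protein-coding gene among the 5 largest labelled falls that also fell past 4-fold in unlabelled reads. ATXN2L, an RNA-binding protein, had 52, 173 and 94 labelled reads (log2 −1.90), and HELLS, a chromatin remodeller, 47, 106 and 58 (log2 −1.34), while ENSG00000218227 and ENSG00000178715 (log2 −1.63 and −1.54) are processed pseudogenes. Labelled reads of these 4 were above 0 h in DMSO, at log2 1.17, 1.16, 0.89 and 1.25 in that order, so DMSO was the high library. TXNIP was below 0 h in DMSO (log2 −0.77). The highest labelled ratios were those of ENSG00000258634, an antisense gene (log2 1.34), KLHDC4 (1.29), COTL1, which binds actin (1.11), GPS2, a subunit of a corepressor complex (1.01), and, just short of 2-fold, ARHGAP33 (1.00). Unlabelled reads of these 5 had log2 ratios between −0.04 and 0.15. Their labelled reads in DMSO over 0 h were at log2 −1.09, −0.97, −0.41, −0.07 and −0.37 in the same order. DMSO was thus the low library, most clearly for ENSG00000258634 and KLHDC4.

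Several of the deepest falls were of processed pseudogenes, intronless copies that share sequence with their parent genes. TXNP6 had 0 unlabelled reads in AZ-5576 2 h, 139 in DMSO 2 h and 38 at 0 h, at least 52.2-fold lower with 0 taken as up to 3 reads. RPL39P3 had 7, 174 and 66 (log2 −4.71) and RPL19P5 10, 111 and 31 (log2 −3.58), and RPS15AP24 7, 100 and 37 (log2 −3.92). At 4 h the unlabelled log2 ratios of TXNP6, RPL39P3, RPL19P5 and RPS15AP24 were 1.40, 0.41, 0.79 and 0.40. The falls of these pseudogenes thus did not last, in contrast to SOCS3 (−5.16 at 4 h and −6.75 at 8 h). Of 770 processed pseudogenes, 161 (20.9%) were 2-fold lower in total reads, against 9.3% of all genes, and how reads were shared among copies was not tested. The sense-intronic ENSG00000276533 had 12, 127 and 24 unlabelled reads (log2 −3.52), and reads of its host gene on that strand cannot be told apart from it.

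Set against 0 h, AZ-5576 cells gained unlabelled RNA at far fewer genes than DMSO cells, and these genes were longer. Among genes with at least 100 unlabelled reads in the higher library, 159 of 5966 (2.67%) were at least 2-fold above 0 h in AZ-5576 2 h and 62 (1.04%) below. In DMSO 2 h 1461 of 6617 (22.1%) were above and 4 (0.0605%) below. Both counts use the same 0 h library. The genes above 0 h in AZ-5576 had a median genomic span of 91.8 kb, and those above 0 h in DMSO 44.7 kb, where all genes so measured had 22.8 and 24.0 kb. The 62 genes below 0 h in AZ-5576 had a median span of 2.12 kb, and the 4 below 0 h in DMSO 0.80 kb. Spans were taken over all gene types. The 62 include processed pseudogenes such as ENSG00000218227 (591 bases) and ENSG00000178715 (438 bases). In both arms, genes above 0 h were thus longer than all genes at the median, and those below 0 h shorter.

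After FOSB, RNVU1-25, LINC00324 and ENSG00000271754, the largest gains over 0 h in AZ-5576 were of MITF, CHD2, MEMO1 and ZMYND8, which span 228.9, 127.8, 146.2 and 147.7 kb. MITF, a basic helix-loop-helix factor, had 219 unlabelled reads in AZ-5576, 199 in DMSO and 54 at 0 h (log2 of AZ-5576 over DMSO −0.03). ZMYND8, a chromatin reader, had 1039 in AZ-5576, 1106 in DMSO and 292 at 0 h (log2 −0.26). The arms were within 2-fold of each other and both well above 0 h. At 4 and 8 h the ratio of AZ-5576 to DMSO was −0.84 and −2.48 for MITF and −1.20 and −3.12 for ZMYND8, so the arms parted later. Next, 7410 protein-coding genes with a mean total of at least 100 reads were put into 5 bins of span. From shortest to longest, the median unlabelled log2 ratio of AZ-5576 over DMSO at 2 h was −0.20, −0.39, −0.49, −0.50 and −0.42. The bins also differed in GC content of the transcript end, with medians of 48.7% in the shortest and 35.3% in the longest. Among genes of lower GC the ratios were −0.67, −0.63, −0.62, −0.56 and −0.47 in the same order. Among genes of higher GC they were −0.12, −0.22, −0.30, −0.40 and −0.25. The shortest genes thus had the lowest median at lower GC and the highest at higher GC.

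Genes whose labelled RNA was lost fast fell more. The 6866 protein-coding genes with at least 50 labelled reads at 0 h were put into 4 near-equal bins by the labelled reads left at 4 h of DMSO relative to 0 h, libraries that the 2 h ratio does not use. From the fastest loss to the slowest, the median unlabelled log2 ratio was −0.68, −0.40, −0.34 and −0.35, and 31.5%, 15.3%, 10.9% and 12.6% of genes were 2-fold lower. The step thus lay between the bin of fastest loss and the other 3. GC content of the last 300 transcript bases moved with the ratio as well, with medians of −0.65, −0.54, −0.35 and −0.11 from lowest to highest GC in 4 bins of 7410 protein-coding genes with a mean of at least 100 reads. Within low-GC genes the loss bins had medians of −0.86, −0.62, −0.52 and −0.51, and within high-GC genes −0.47, −0.23, −0.18 and −0.14. The median GC was 42.0% in the immediate-early list and 35.3% in the feedback list, and with ratios corrected for GC their unlabelled medians were −1.90 and −1.69. With that correction 2278 genes were 2-fold lower in unlabelled reads, against 2545 without it. Of 81 list medians 9 changed sign, with corrected and uncorrected values of at most 0.14 in size on the log2 scale, among them those of ribosomal protein and glycolytic genes in unlabelled reads (−0.10 and −0.14).

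The falls at 2 h largely held later. Of the 1014 genes with at least 100 unlabelled reads and a 2-fold fall, 905 (89.3%) were also 2-fold lower in AZ-5576 4 h over DMSO 4 h, where 54.3% of all 6616 such genes were, and 942 (92.9%) in the 8 h pair, where 80.0% were. At 2, 4 and 8 h their medians on the log2 scale were −1.33, −2.18 and −3.43, and those of all 6616 were −0.37, −1.09 and −2.20. They made up 25.2% of the 3590 genes lower at 4 h and 17.8% of the 5290 lower at 8 h. Of the 6 rises, 1 was again 2-fold higher in each later pair (RNVU1-25) and 1 was 2-fold lower (COX18). Of all 166 genes higher at 2 h, low counts included, 25 (15.1%) were higher at 4 h, which is 17.9% of the 140 genes higher then (1.19% of all).

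**Figure D5:**
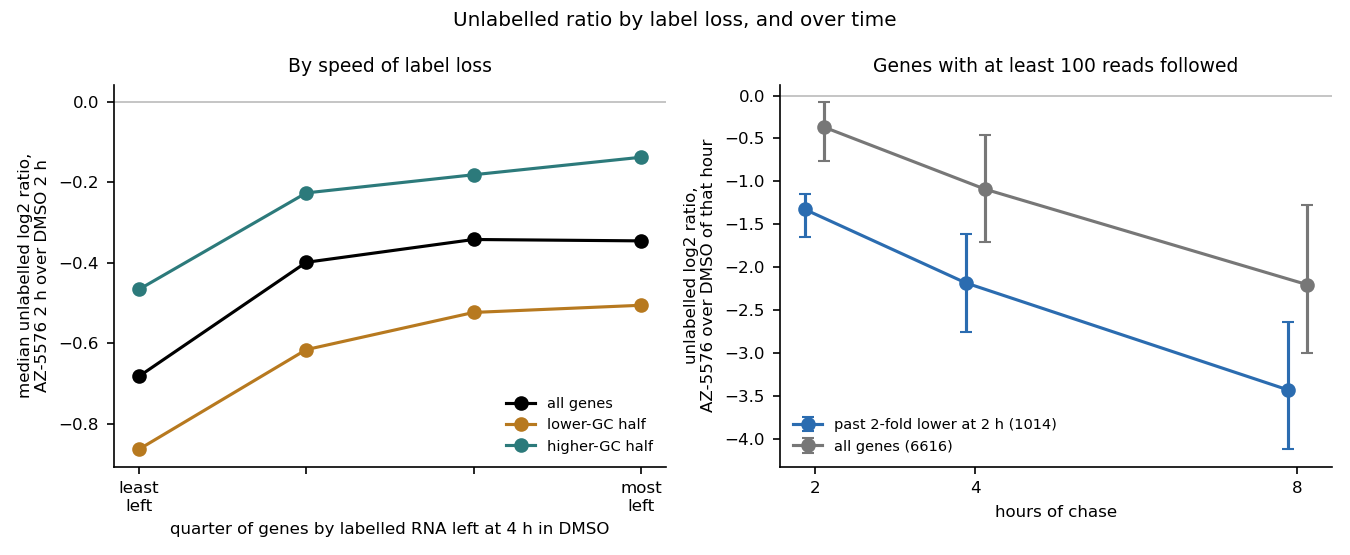
Left, median unlabelled log2 ratio of AZ-5576 2 h over DMSO 2 h (y) in 4 bins of genes by labelled RNA left at 4 h in DMSO (x), for 6866 protein-coding genes and for those of lower and higher GC. Right, unlabelled log2 ratio of AZ-5576 over DMSO of the same hour (y) at 2, 4 and 8 h (x), as median with the middle 50% of genes as bars, for 1014 genes 2-fold lower at 2 h and all 6616. Fast-lost RNAs had the lowest ratios in both GC groups, and the genes lower at 2 h stayed below the rest at 4 and 8 h (−2.18 against −1.09, −3.43 against −2.20).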

How the data were processed

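The authors deposited raw read counts per gene for all human reads (total), for reads named nascent (taken here as labelled, that is with T-to-C changes) and for fly reads, per the file headers. The builds hg38 and dm6 and the tools bedtools, Trim Galore 0.6.5 and bcl2fastq 2.17.1.14 are those named per the submitters' processing notes. The aligner, the counter, the annotation and the rule for nascent reads are not given in the sources used here. Per the labels' protocols the libraries are QuantSeq 3′ FWD, 1 per condition, with 5% fly S2 RNA added to purified RNA.

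Unlabelled reads are total minus nascent counts. Log2 ratios used counts plus 0.5, divided by the fly read total of the library, for genes with a mean total of at least 20. A gene was called past 2-fold, without a test. Intervals are exact 95% binomial (ratios of counts by conditional binomial), and cover counting error only. The excess is unlabelled reads minus labelled reads times the 0 h ratio of unlabelled to labelled. The arithmetic was tested on simulated data. TMM (edgeR 4.0.16) and size factors (DESeq2 1.42.0, R 4.3.3) were used as other scales, beside Python 3.11.15 with numpy 2.4.6 and pandas 2.3.3. Gene positions and classes are from GENCODE v29 (GRCh38), promoters from RefSeq.

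Named genes were the 10 largest falls and 6 largest rises of unlabelled reads, and the 5 largest each way of labelled and of total reads, with at least 100 such reads in the higher library, plus a panel of 18 genes. List members named as examples were chosen for their ratios or their roles. Members and gene lists were chosen with earlier results of these data known.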

Additional observations from a re-analysis of the deposited data

Results flagged for a closer look

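A few genes went the opposite way in a later pair of libraries from the way they went at 2 h, past 2-fold each time. None of these differences was tested, and each rests on 1 library a side. TXNP6, a processed pseudogene, had log2 ratios of AZ-5576 over DMSO of −6.87 in total reads and −8.30 in unlabelled reads at 2 h. At 4 h they were 1.42 and 1.40. It had 0 unlabelled reads in AZ-5576 2 h, so the size of the unlabelled ratio at 2 h rests on the 0.5 added to each count. COX18 had an unlabelled log2 ratio of 1.23 at 2 h, −1.26 at 4 h and −1.35 at 8 h. ATXN2L had a labelled log2 ratio of −1.90 at 2 h and 1.24 at 4 h.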

How the results depend on the processing

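No value of a named gene or list median past 2-fold changed sign under the other scales or a pseudocount of 5. Nor did any of the 6 list medians past 2-fold under a GC correction. Each other scale shifts all log2 ratios by a constant of less than 2-fold, so it could not reverse a value past 2-fold. Sign changes of named genes within 2-fold were not counted. Of 260 recomputed values of named genes, 228 stayed within their counting interval. Counts of calls moved more. Scaled by TMM and by DESeq2 size factors of human genes, falls in total reads were 686 and 671, rises in total reads 207 and 210, rises in unlabelled reads 280 and 286, and rises in labelled reads 779 and 795, with 507 falls in labelled reads under DESeq2. Both scales centre human genes, and moved the medians to −0.01 (total), −0.18 (unlabelled) and 0.18 (labelled) under TMM. Falls in unlabelled reads were 1747 and 1714, and scaling by human total reads or DESeq2 size factors of fly genes moved no count by 1.5-fold. A pseudocount of 5, which pulls low counts together, gave 53 rises in total, 71 in unlabelled and 178 in labelled reads and 455 labelled falls. No filter, over more genes, gave 5194 falls and 3447 rises in total, 6452 and 3252 in unlabelled, and 2830 and 2546 in labelled reads. A mean of at least 100, over fewer genes, gave 453 and 3, 1417 and 9, and 183 and 67. A threshold of 1.5-fold gave 2780 and 323, 4745 and 417, and 1690 and 1092. Asking for the whole counting interval past 2-fold gave 357 and 9, 881 and 8, and 63 and 19. Alternatives added after seeing the data were protein-coding genes only (68 rises in total, 101 in unlabelled reads, 484 labelled falls), a GC correction, and a minimum of 100 or 200 reads for the labelled share, where 1.23% and 0.403% of genes were 10 points lower. Less the reads predicted from 0 h, the unlabelled sum of AZ-5576 was 32.0% of DMSO and not 92.0%. Beyond their construction the cause was not tested. No paired analysis was possible because each condition has 1 library, so no library could be left out. Depth limits the report to large changes: genes under about 100 reads scatter past 2-fold in the fly RNA too.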
